A study of Mus musculus with 36 samples.

Results

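The EGF receptor family and its ligands were followed through the chromatin of the adult mouse pancreas. The 10 genes were taken by name, 3 receptor genes (Egfr, Erbb2 and Erbb3) and 7 ligand genes (Tgfa, Hbegf, Areg, Ereg, Btc, Epgn and Egf), of 21938 protein-coding genes in the mm10 annotation, and the rule for choosing them used no measured value. EGFR is a receptor tyrosine kinase that pairs with itself or with another family member when a ligand binds. ERBB2 binds no known ligand and serves as a partner, ERBB3 binds neuregulins and has little kinase activity of its own, and the ligands are made as membrane-anchored precursors that proteases release. In the pancreas, signaling through EGFR is well known for its part in the change of acinar cells toward duct-like cells.

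Whole pancreata of 6 mice, 2 to 4 months old when tamoxifen was given by gavage, were taken 22 days later, and H3K4me3 (K4me3, a mark of promoters that can be transcribed) and H3K27me3 (K27me3, the repressive mark deposited by Polycomb repressive complex 2) were each mapped by ChIP-Seq in every mouse. There were 3 mice labeled wildtype (WT) and 3 labeled Mist1creERT/+ EZH2[delta]SET (EZ). Both groups received tamoxifen. The WT controls were, by the methods of the study, either C57BL/6 mice or mice with the Mist1creERT allele alone. The Mist1-driven Cre acts in acinar cells, where it removes the SET domain that gives EZH2 its methyltransferase activity, whereas the tissue assayed also contained the duct, islet, stromal and blood cells in which Cre is not active. Only the positions of the peaks called in each mouse were used, with no height or read count, so a peak states that enrichment was called, covered length is not a measure of signal strength, and the depth behind each list is unknown. In whole tissue, a mark present in fewer cells cannot be told apart from a weaker mark in every cell.

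The lists held between 17399 and 25885 peaks for K4me3 and between 21419 and 31273 for K27me3. WT mouse 2 stood apart, with the fewest peaks for either mark. In this mouse 9.76% of K27me3 peaks overlapped a K4me3 peak, compared with 0.748% to 2.73% in the other 5 mice. All 6 acinar markers examined carried K4me3 in every mouse, but their summed K4me3 length was 21403 bp in WT mouse 2 and 35798 to 37924 bp in the others. Of 5 leukocyte markers, 4 carried K4me3 in WT mouse 2, 2 in EZ mouse 2, and none in the other 4 mice, and Csf1r, a defining receptor of macrophages, had no peak of either mark near a TSS in any mouse. K4me3 was found at all 4 duct markers in 5 mice and at 3 in WT mouse 2, at 2 of 4 islet markers in 5 mice (never Ins2 or Gcg) and at 1 in WT mouse 2, at 1 or 2 of 4 fibroblast and endothelial markers (never Cdh5) and at 0 or 1 of 4 markers of other tissues. Xist lacked K4me3 and all 4 Y-linked genes examined carried it in EZ mouse 2, and the reverse held in the remaining 5. Ezh2 carried K4me3 in all 6 mice, which says nothing about the allele since its promoter lies outside the deleted part. The part these differences play in the results was not tested, and values are given with and without WT mouse 2 where it matters.

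Upstream sequences of 4 members are shown because the genes fell into different classes of marking, which are described next. Each is the 250 bases before the RefSeq start (GRCm38.p6, plus strand, 5′ to 3′) in lower case, with each CG dinucleotide in capitals. Egfr (chr11:16751953-16752202) and Tgfa (chr6:86194972-86195221) carried K4me3 in all mice, Areg (chr5:91139349-91139598) carried both marks in all mice, and Epgn (chr5:91027267-91027516) had neither mark in any mouse.
Egfr: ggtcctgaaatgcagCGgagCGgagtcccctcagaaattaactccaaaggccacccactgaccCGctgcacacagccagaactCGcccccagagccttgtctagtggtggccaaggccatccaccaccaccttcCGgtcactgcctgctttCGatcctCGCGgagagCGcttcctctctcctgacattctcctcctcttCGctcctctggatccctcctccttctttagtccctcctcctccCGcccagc
Tgfa: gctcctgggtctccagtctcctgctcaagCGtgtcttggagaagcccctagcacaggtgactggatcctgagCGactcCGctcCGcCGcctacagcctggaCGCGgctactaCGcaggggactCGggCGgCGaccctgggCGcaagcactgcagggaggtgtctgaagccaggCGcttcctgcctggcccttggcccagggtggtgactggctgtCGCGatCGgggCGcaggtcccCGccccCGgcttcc
Areg: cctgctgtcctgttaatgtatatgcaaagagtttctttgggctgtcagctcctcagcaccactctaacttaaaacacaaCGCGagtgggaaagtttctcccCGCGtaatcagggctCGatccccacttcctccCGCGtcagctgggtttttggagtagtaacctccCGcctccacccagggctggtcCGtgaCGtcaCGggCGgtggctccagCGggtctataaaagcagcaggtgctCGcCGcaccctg
Epgn: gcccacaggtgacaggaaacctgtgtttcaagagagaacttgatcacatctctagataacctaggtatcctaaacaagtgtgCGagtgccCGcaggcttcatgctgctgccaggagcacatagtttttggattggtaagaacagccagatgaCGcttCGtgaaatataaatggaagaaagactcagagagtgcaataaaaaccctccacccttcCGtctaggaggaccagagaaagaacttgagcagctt

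Counted over 300 bases (250 before to 50 after the start), there were 15 CpGs at Egfr, 21 at Erbb2, 24 at Tgfa, 21 at Areg, 5 at Btc, 5 at Epgn and 0 at Egf. Promoter sequences of Erbb3, Hbegf and Ereg were not used here. For scale, genes with K4me3 and no K27me3 in all mice other than WT mouse 2 had a median of 22 CpGs, genes with both marks in those mice had 17, and genes with neither had 3. Areg, Tgfa and Epgn lay between the median and the upper quartile of their own classes (upper quartiles of 26, 29 and 6), and Egfr and Erbb2 between the lower quartile of 14 and the median, while Btc and Egf carried K4me3 in every mouse with 5 and 0 CpGs, below the lower quartile of that class. The Areg sequence also contains TGACGTCA, the cyclic AMP response element, starting 61 bases before the start. This palindrome, searched as written and thus on both strands, was found in 2.27% of 14266 promoters and in no other of the 7 members with a sequence, and its letters overlap none of the other features named here except 1 CpG.

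All 3 receptors and 5 ligands had K4me3 within 3 kb of a transcription start site (TSS) in every mouse, while Ereg and Epgn had no such K4me3 peak in any of the 6 mice. Thus 8 of 10 members carried K4me3 in all 3 mice of each genotype. Over all protein-coding genes the share was 58.0% in WT and 60.8% in EZ. K27me3 was found at Areg in all 6 mice, at Ereg in 5, and at Epgn, Erbb3 and Btc in none. Egfr, Erbb2, Tgfa, Hbegf and Egf had K27me3 near a TSS only in WT mouse 2, the mouse that stood apart. Members with K27me3 in all 3 mice of a genotype numbered 1 in WT (Areg) and 2 in EZ (Areg and Ereg), compared with 5.78% of all genes in WT and 7.39% in EZ.

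**Figure D1:**
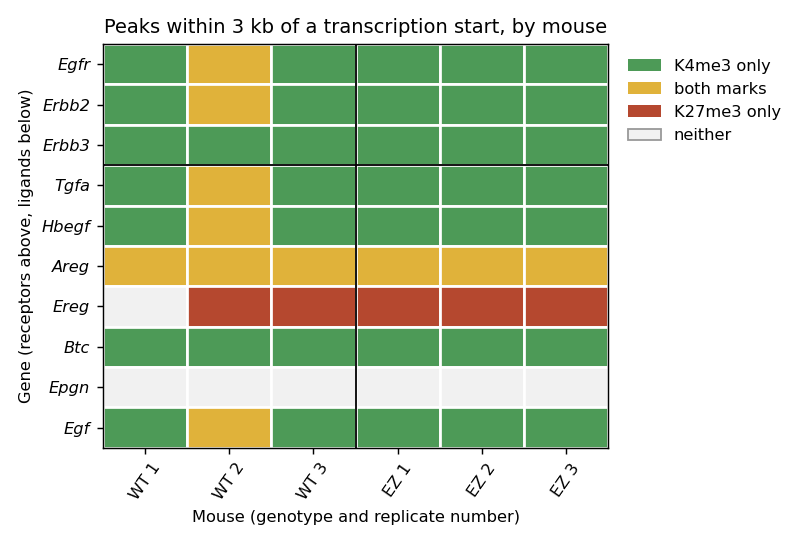
Peaks within 3 kb of any annotated TSS of each of the 10 genes (rows, receptors above the line) in each of the 6 mice (columns, 3 per genotype). Green is K4me3 alone, yellow both marks, red K27me3 alone and gray neither. Areg is yellow in all 6 mice, Ereg is red in 5, and the yellow cells of the other genes are all in WT mouse 2.

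Seen over both marks and all 6 mice, the combination of calls at Areg was shared by 131 genes (0.597% of all genes) and that at Ereg by 156 (0.711%), both counts including the gene itself. The absence of both marks at Epgn was shared by 3810 genes (17.4%). Erbb3 and Btc had the calls common to 9901 genes (45.1%), with K4me3 in all mice and no K27me3. Without WT mouse 2, Egfr, Erbb2, Erbb3, Tgfa, Hbegf, Btc and Egf all had that combination, as did 54.9% of genes.

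Egfr encodes the receptor shared by all 7 ligands. Its gene spans 166 kb on the plus strand of chromosome 11 (chr11:16752203-16918158), and its K4me3 peak began 643 to 826 bp before the 5′ end and reached 1862 to 2736 bp into the gene. K4me3 covered 3315, 2506 and 3563 bp within 3 kb of the annotated starts in WT and 3342, 3370 and 3358 bp in EZ. The EZ mice lay between the WT mice, and the lowest value was that of WT mouse 2. The mean was 3128 ± 553 bp in WT and 3357 ± 14 bp in EZ (SD, n = 3 each). The EZ minus WT difference was 228.7 bp, and -82.33 bp without WT mouse 2.

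K4me3 was also called far inside Egfr. In 5 of 6 mice, 5 further regions were marked, beginning 17.0, 31.3, 47.8, 56.6 and 148.0 kb from the 5′ end, all intronic and all over 3 kb from any annotated start. A region beginning at 50.1 kb was marked in 4 mice. None of these was called in WT mouse 2. Regions of this kind, marked in at least 5 mice, were found in 8.64% of protein-coding genes, and 67 genes (0.305%) had at least 5 of them. Among 1434 genes within 1.5 times the length of Egfr, 28 (1.95%) had as many. Of the other members only Erbb2 had one.

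**Figure D2:**
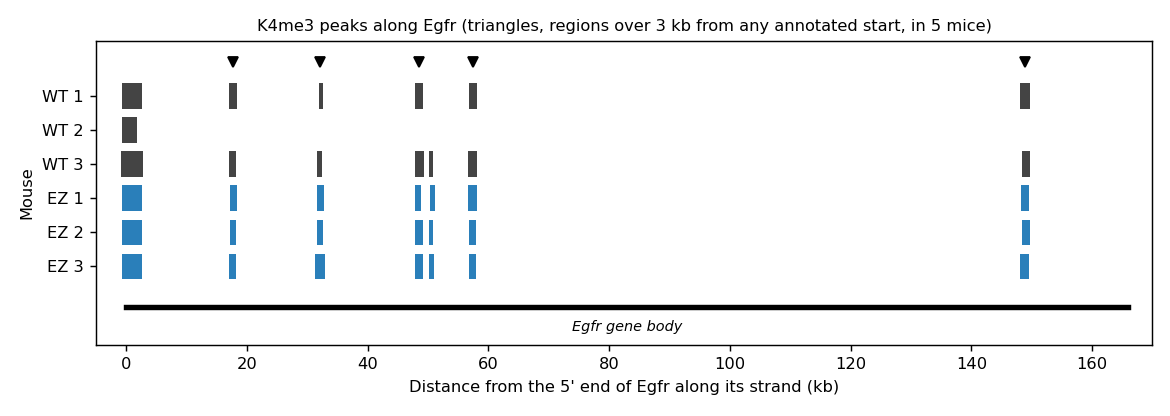
K4me3 peaks (bars, colored by genotype) along the 166 kb of Egfr, plotted as distance in kb from its 5′ end, with 1 row per mouse. The 5 triangles mark intronic regions over 3 kb from any annotated start, which were called in 5 mice. WT mouse 2 has only the peak at the 5′ end.

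Erbb2, the partner receptor, lies on the same chromosome (chr11:98412470-98437716, plus strand). K4me3 covered 2125, 1245 and 2070 bp in WT mice and 1704, 2151 and 1795 bp in EZ mice. WT mouse 2 had the lowest value and EZ mouse 2 the highest, and the groups overlapped. The mean was 1813 ± 493 bp in WT and 1883 ± 236 bp in EZ (SD, n = 3 each), and the difference was 70 bp with all mice and -214.2 bp without WT mouse 2. The peak reached 0.75 kb into the gene in WT mouse 2, compared with 1.24 to 1.67 kb in the other 5 mice. A second, intronic K4me3 peak 6.3 to 7.2 kb into Erbb2 was called in those same 5 mice.

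Erbb3 encodes the neuregulin receptor that signals through ERBB2 (chr10:128567523-128589652, minus strand). K4me3 covered 3236, 2553 and 2764 bp in WT and 2865, 2878 and 2862 bp in EZ. The 3 EZ values lay within the range of WT, and the means were 2851 ± 350 and 2868 ± 8.5 bp (SD, n = 3 each). A second peak, 4.29 to 6.03 kb into the gene near the annotated start of the microRNA gene Mir6917, was called in every mouse except WT mouse 2. Erbb3 carried no K27me3 in any mouse.

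Tgfa, a high-affinity EGFR ligand long used to drive acinar-to-ductal change in mice, lies at chr6:86195223-86275719 on the plus strand. K4me3 covered 3363, 1334 and 3554 bp in WT and 3435, 3206 and 2842 bp in EZ. WT mouse 2 lay below every other mouse, and the other 5 overlapped. The means were 2750 ± 1230 bp in WT and 3161 ± 299 bp in EZ (SD, n = 3 each), with a difference of 410.7 bp that was -297.5 bp without WT mouse 2.

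Both edges of the Tgfa peak varied. It began 202 bp before the 5′ end in WT mouse 2 and further upstream in the other 5 mice, at most 797 bp before the 5′ end in WT mouse 3. Downstream, a single peak reached 2.56 to 2.76 kb into the gene in WT mice 1 and 3 and EZ mice 1 and 2. In WT mouse 2 it ended at 1.13 kb. In EZ mouse 3 a gap separated a first peak ending at 1.41 kb from a second beginning at 2.03 kb. An intronic region 38.1 to 39.6 kb into the gene was marked in WT mouse 1 and all EZ mice.

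**Figure D3:**
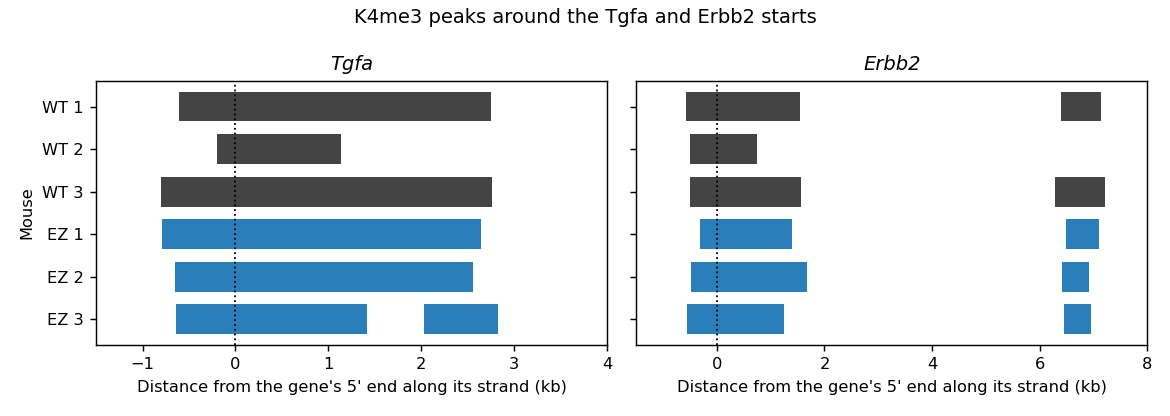
K4me3 peaks (bars, colored by genotype) near the 5′ ends of Tgfa and Erbb2, as distance in kb along each gene, with 1 row per mouse. The Tgfa peak ends before 1.5 kb in WT mouse 2 and is split there in EZ mouse 3. The Erbb2 peak ends before 1 kb in WT mouse 2 alone, which also lacks the second peak.

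Hbegf encodes the heparin-binding ligand. K4me3 covered 2157, 1494 and 2464 bp in WT and 2542, 1913 and 2392 bp in EZ. The groups overlapped, with WT mouse 2 again the lowest. Its only K27me3 peak was 5001 bp wide, in WT mouse 2.

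Egf, the founding ligand of the family, is a 77.8 kb gene on the minus strand (chr3:129677565-129755316). K4me3 covered 3726, 2658 and 3511 bp in WT and 4954, 3711 and 3990 bp in EZ. EZ mouse 1 had the longest coverage, with a single peak reaching 3.5 kb into the gene, where 3 mice had a separate second peak and 2 had none. In WT mouse 2 the peak began 19 bp inside the gene and left the 5′ end uncovered. The lowest EZ mouse lay 15 bp below the highest WT mouse. The means were 3298 ± 565 bp in WT and 4218 ± 652 bp in EZ (SD, n = 3 each). The difference of 920 bp had p = 0.2 by the exact permutation test (adjusted p = 0.895 over all genes), and it was 599.8 bp without WT mouse 2 (exact permutation p = 0.4, adjusted p = 0.908) and 552.2 bp without EZ mouse 1. A further peak 29.32 to 30.91 kb into the gene, at an internal annotated start, was present in all 6 mice. The antisense gene 6330410L21Rik and the microRNA gene Gm24515 start within 3 kb of an Egf start, so these peaks cannot be given to Egf alone.

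**Figure D4:**
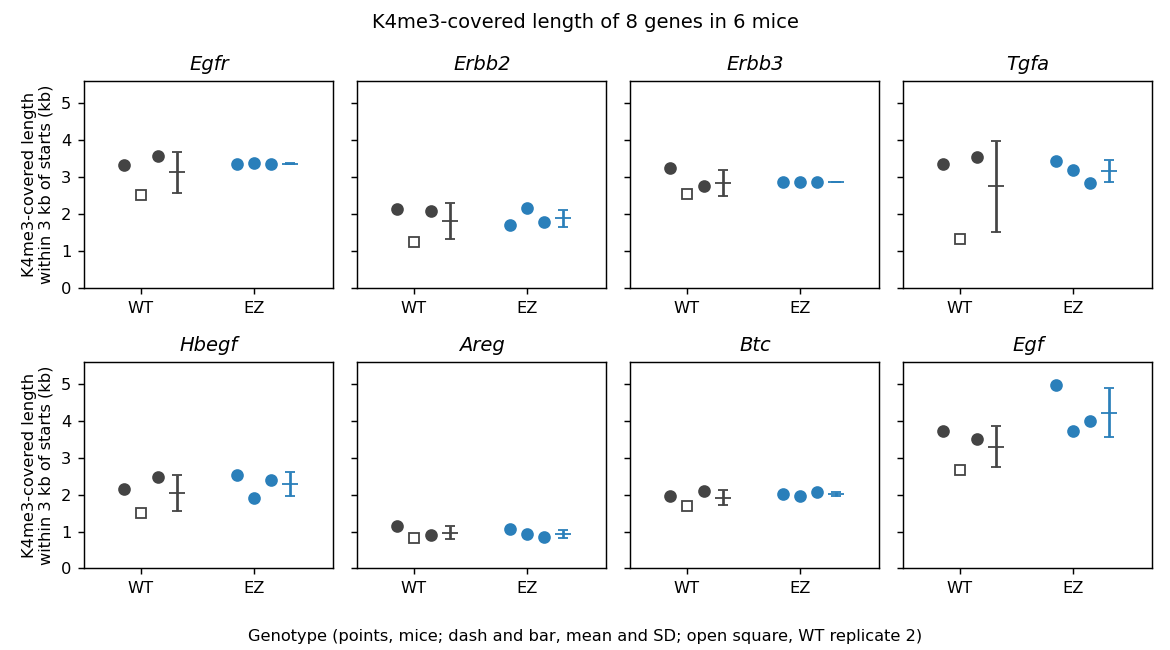
K4me3-covered length in kb within 3 kb of annotated starts for the 8 members with a peak, with 1 point per mouse and the mean and SD of 3 mice beside it. WT mouse 2 is the open square and is the lowest of the 6 points for every gene shown. The EZ points overlap the WT points for every gene.

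EZ and WT overlapped for all 8 members tested for K4me3. Over the 13722 genes tested, the mice of the groups did not overlap for 11.9%, with EZ the higher for 9.64% and the lower for 2.24%, and the median difference over all genes was 92.3 bp. For 3 mice against 3, the smallest two-sided p of an exact permutation test is 0.1, so 0 genes could fall below 0.05 before or after adjustment. The exact permutation p of the members ranged from 0.2 (Egf) to 1. Without WT mouse 2, no member was separate either, while 23.2% of genes were. In the 4 mice with no K4me3 at the leukocyte markers, Erbb2 (lower in EZ) and Egf (higher in EZ) were separate, as were 36.3% of genes.

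The remaining 4 ligands lie together on chromosome 5. Taken from the start of Areg, the start of Epgn is 112.1 kb and that of Ereg 65.0 kb upstream, and that of Btc 263.4 kb downstream on the opposite strand. Areg and Ereg encode amphiregulin and epiregulin, low-affinity EGFR ligands induced by growth factor signaling and in injured epithelium. Epgn encodes epigen, another EGFR ligand, and Btc betacellulin, which binds both EGFR and ERBB4. The marks divided the cluster. K27me3 lay over Ereg and Areg, K4me3 over Areg and Btc, and Epgn at the upstream edge was free of both.

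**Figure D5:**
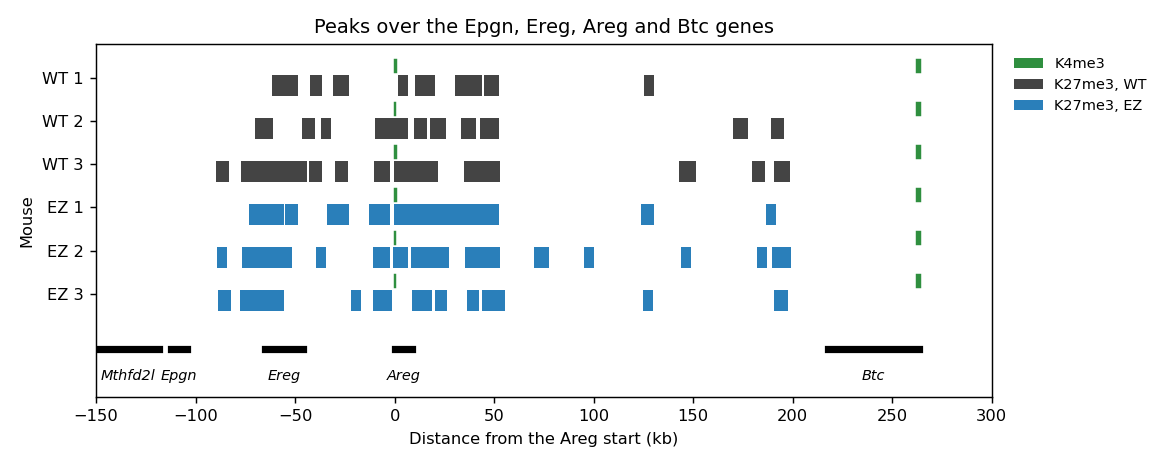
K27me3 peaks (bars colored by genotype) and K4me3 peaks (green ticks) in each mouse over the ligand cluster, as distance in kb from the Areg start, with the gene bodies as black bars below. K27me3 peaks lie over Ereg and Areg in all 6 mice, K4me3 lies at the starts of Areg and Btc, and no K27me3 peak reaches Btc or Epgn.

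Areg carried both marks. Its K4me3 peak was the narrowest among the members, at 1158, 821 and 917 bp in WT and 1056, 924 and 838 bp in EZ, and the groups overlapped. The K4me3 and K27me3 peaks overlapped in 4 mice, by 821 to 1056 bp. In WT mouse 1 and EZ mouse 3 they were 1183 and 880 bp apart. K27me3 covered the 5′ end itself in the same 4 mice where the peaks overlapped. Genes with both marks within 3 kb of a TSS in all mice other than WT mouse 2 numbered 188 (0.857%). In bulk tissue, marks on the same chromosomes cannot be told apart from marks in different cells.

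Of the Areg gene with 3 kb on either side of its start (chr5:91139599-91148432 and the flanking windows, plus strand), K27me3 covered 42.3%, 82.0% and 81.3% in WT and 83.1%, 74.7% and 15.9% in EZ. The lowest were EZ mouse 3 and WT mouse 1, the mice in which the marks did not overlap, and the other 4 lay close together. The mean was 68.5% ± 22.8 in WT and 57.9% ± 36.6 in EZ (SD, n = 3 each). The difference was -10.64 percentage points (exact permutation p = 0.7, adjusted p = 1), and it was 10.36 without EZ mouse 3.

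Ereg lacked K4me3 in every mouse, and K27me3 covered its 5′ end in 5 of 6. In those 5 mice the entire 6001 bp window around the start was covered. In WT mouse 1 the nearest K27me3 peak began 3.22 kb into the gene. Of the Ereg locus (chr5:91074622-91093646, plus strand, with the same window), K27me3 covered 60.9%, 34.7% and 100% in WT and 85.0%, 74.5% and 56.8% in EZ. The EZ mice lay within the range of WT, with means of 65.2% ± 32.8 in WT and 72.1% ± 14.2 in EZ (SD, n = 3 each). The difference was 6.876 percentage points (exact permutation p = 0.9, adjusted p = 1), and -8.369 without WT mouse 2. The antisense gene Gm19610 starts within 3 kb of Ereg, and peaks there cannot be assigned to either gene.

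Epgn (chr5:91027464-91035215, plus strand) carried neither mark in any of the 6 mice. Btc (chr5:91357261-91402994, minus strand) carried K4me3 over 1966, 1688 and 2100 bp in WT and 2028, 1959 and 2073 bp in EZ. The EZ mice lay within the range of WT, and no K27me3 was called at the gene in any mouse.

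Around the cluster, intervals were set after the peaks had been seen. From 100 kb upstream to 50 kb downstream of the Areg start, K27me3 covered 61.1, 66.3 and 97.8 kb in WT and 95.8, 84.8 and 72.1 kb in EZ. From 50 to 300 kb downstream, toward Btc, it covered 7.38, 16.2 and 25.9 kb in WT and 13.6, 35 and 17.3 kb in EZ. The groups overlapped in both intervals. The highest value of the second interval was that of EZ mouse 2, in which K27me3 covered 226 Mb of the autosomes against 149 to 182 Mb in the other 5 mice and had 17 peaks on chromosome X against 5637 to 7367.

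EZ and WT overlapped for Areg and Ereg, the 2 members tested for K27me3. The groups did not overlap for 8.96% of the 4007 genes tested, with EZ the higher for 8.31% and the lower for 0.649%. In the 4 mice with no K4me3 at the leukocyte markers, neither ligand was separate, while 44.5% of genes were.

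The wider pathway was described by 17 further genes. Erbb4, the remaining receptor, and its neuregulin ligands were the group with K27me3. Erbb4, Nrg1 and Nrg3 were marked near a TSS in all 6 mice. Nrg2 was marked in WT mouse 2 and EZ mouse 2, and Nrg4 in WT mouse 2 alone. Erbb4 carried K4me3 as well in every mouse except WT mouse 2, Nrg1 in 1 WT and 2 EZ mice, and Nrg3 in none. The 4 genes of ligand shedding (the proteases Adam10 and Adam17 and the iRhom genes Rhbdf1 and Rhbdf2), the 4 signaling adaptors (Grb2, Shc1, Sos1 and Gab1) and the 4 negative regulators (Errfi1, Lrig1, Cbl and Rnf41) carried K4me3 in all 6 mice, and among these 12 genes K27me3 was called only at Gab1 and Lrig1, both in WT mouse 2, the mouse that stood apart. K4me3 in all mice of a genotype was the common state (58.0% of all genes in WT and 60.8% in EZ), and K27me3 in all of them was not (5.78% and 7.39%).

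With all mice, EZ and WT were separate for K4me3 at 1 of the 16 pathway genes tested, compared with 11.9% of all genes. This gene was Nrg4, a ligand of ERBB4, with 3150, 2795 and 2893 bp in WT and 3736, 3402 and 3382 bp in EZ (difference 560.7 bp, exact permutation p = 0.1, the smallest that 3 against 3 allows, adjusted p = 0.842). Without WT mouse 2, 3 of the 16 genes were separate, compared with 23.2% of all genes. These were Nrg4 (485.2 bp), Nrg2 (-138.8 bp) and Rhbdf2 (-695.7 bp), each with an exact permutation p of 0.1 and an adjusted p of 0.798. The differences of Nrg2 and Rhbdf2 were -51.67 and -336.3 bp with all mice, and the groups overlapped.

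For K27me3, 0 of the 4 pathway genes tested were separate with all mice, where 8.96% of all genes were. Without WT mouse 2, 1 of the 4 was separate, where 20.6% of all genes were. K27me3 covered 4.32%, 33% and 12.5% of the Nrg2 locus in WT mice 1, 2 and 3 and 21.4%, 19.4% and 27.4% in EZ. WT mouse 2 was the highest of all 6 mice, and the difference was 6.103 percentage points with it and 14.31 without it (exact permutation p = 0.1, adjusted p = 0.86).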

How the data were processed

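Each of the 6 mice gave a ChIP-Seq library per mark, and reads were mapped by the authors with Bowtie2 (mm10 build) before HOMER, in its histone mode, called the peaks of each mouse over the matching input. Versions are not given in the sources used here. The deposited lists give peak positions, and their score column, which the authors left at 1 for every peak, was not used. The narrowest K4me3 peak was 501 bp and the narrowest K27me3 peak 5001 bp, so shorter enrichment was not called. Other genotypes of the series are not reported here. Input samples and depth were not analysed here.

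Peaks on chromosomes 1 to 19, X and Y were compared with GENCODE vM21. A gene was called where a peak overlapped the 3 kb on either side of any annotated TSS. The value tested was the length covered in those windows (K4me3) or the share covered of the gene body plus those windows (K27me3), in genes with a covered value above 0 in at least 3 of the 6 mice. EZ was compared with WT over all 20 relabellings of the mice (smallest two-sided p 0.1), with Benjamini-Hochberg adjustment over all genes tested. This test replaced one over more mice after the data had been seen. The code was tested on simulated data. Promoter sequences were from RefSeq (GRCm38.p6), taking the start nearest the GENCODE 5′ end and within 1 kb of it, for 7 of 10 members. The rule for the members names a gene family and its ligands and uses no value, and all are reported, but the family was picked for description, and the pathway and marker lists were chosen, with earlier results of these data known. Python 3.11.15, numpy 2.4.6 and pandas were used. Whether the mice of a genotype came from separate litters is not stated. Each p-value is the share of relabellings of these mice with a mean difference at least as large as the one seen.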

Additional observations from a re-analysis of the deposited data

How the results depend on the processing

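Peak lists without heights limit every result to where peaks were called, and no difference could pass 0.05 in any alternative. For the window, midpoint and peak-width alternatives, including the widest peaks, the share of all genes is not given. Their counts of members thus cannot be set against such a share. Within 1 kb of a TSS, 1 member was separate between EZ and WT for K4me3, K27me3 marked 0 members in all WT and 1 in all EZ mice, and the Btc difference was -13.33 bp. Requiring the midpoint of a K27me3 peak inside the window left 0 members marked in all WT and 0 in all EZ mice. With equal numbers of the widest peaks, 0 members had K27me3 in all WT mice, 1 was separate for K4me3 (as with a minimum peak width, which also gave 1), and the K27me3 differences were 3.445 percentage points at Areg and -0.392 at Ereg. The widest peaks also left 7 members with K4me3 in all EZ mice, and the Areg K4me3 difference was -305.3 bp. A minimum K4me3 peak width of 1 kb left 7 members with K4me3 in all WT and in all EZ mice. Areg, with peaks of 821 to 1158 bp, was then not among them. Scaling by autosomal length turned the K4me3 differences to -122.4 bp at Egfr, -107.9 bp at Erbb2, -321.9 bp at Erbb3 and -126.9 bp at Btc, and the K27me3 difference to -3.371 percentage points at Ereg. Of the alternatives added after seeing the data, K27me3 peaks of at least 10 kb marked 0 members in all WT and 1 in all EZ mice. In the 4 mice with no K4me3 at the leukocyte markers, 2 members were separate for K4me3, compared with 36.3% of genes. The differences in these mice were -89 bp at Egfr, -348 bp at Erbb2, -136.5 bp at Erbb3, -320 bp at Tgfa and -9.571 percentage points of K27me3 at Ereg. The cause of these changes was not tested.

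With each mouse left out in turn, the K4me3 differences ranged from -82.33 to 446.2 bp at Egfr, -214.2 to 225.8 bp at Erbb2, -131.7 to 209.8 bp at Erbb3, -297.5 to 812.5 bp at Tgfa, -28.17 to 456.8 bp at Hbegf, -98.17 to 70.33 bp at Areg and -13 to 193 bp at Btc. The lowest value was without WT mouse 2 at each of these 7 genes. At Egf it ranged from 552.2 bp (without EZ mouse 1) to 1174 bp (without EZ mouse 2), and it was 340.7 bp within 1 kb of a TSS and 503.2 bp after scaling. The K27me3 difference at Ereg was 33.33 percentage points within 3 kb of a TSS only, that at Areg was -4.127 there and -23.38 after scaling, and peaks of at least 10 kb gave 22.02 at Ereg and -28.59 at Areg. The K27me3 differences ranged from -23.78 to 10.36 percentage points at Areg and from -8.369 to 24.26 at Ereg. Members separate for K4me3 ranged from 0 to 2 (2 without WT mouse 1, and 1 without WT mouse 3 or EZ mouse 2). Without WT mouse 2, 0 members and 23.2% of all genes were separate. The share of all genes without each other mouse is not given, so those counts cannot be set against it. Members with K27me3 in all WT mice ranged from 1 to 2 (2 without WT mouse 1). Correlations between the deviations of same-numbered mice were 0.21, 0.24 and 0.07 for K4me3 and -0.03, -0.15 and 0.03 for K27me3. Each rests on 1 pair of mice and was not compared with differently numbered mice. Whether the numbers pair the mice therefore cannot be told. With the replicate number as a block, the smallest p is 0.25, so no call could change. The mean differences stay the same by construction, at 920 bp for Egf (adjusted p = 0.922 by the exact permutation test) and -10.64 percentage points for Areg K27me3.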
